A study of Mus musculus with 6 samples.

Results

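Granins are the acidic proteins that fill the dense-core granules of endocrine cells and neurons. They bind calcium and aggregate in the trans-Golgi network, which helps to sort prohormones into granules, and proteases in the granule cut several of them into peptides. In the gut they are made by enteroendocrine cells and by enteric neurons, and chromogranin A is the common histological marker of enteroendocrine cells. The family described here comprises 8 genes chosen by name, 8 of the 23235 symbols in the gene tables: the chromogranins Chga and Chgb, the secretogranins Scg2, Scg3 and Scg5, and the related granule proteins Vgf, Pcsk1n and Resp18. Each had 1 row in the gene tables, and all 8 passed the filter on low values.

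RNA was sequenced from the duodenum of 6-week-old mice on a mixed background, with 3 control and 3 mutant animals and 1 library each. A 2 cm piece of duodenum, measured from the stomach, was taken whole, so each library mixes epithelium, nerve, muscle, immune and stromal cells. The 3 mutants, called TNint, were Nkx2.2flox/TN with Villin-Cre/+ and Rosa26Tomato/+. Controls 1 and 2 were Nkx2.2flox/+ with Rosa26Tomato/+, and control 3 was Nkx2.2flox/+ without the reporter. Villin-Cre is active in cells of the gut epithelium. TN, as the study is known, is a mutated tinman domain of Nkx2.2, a transcription factor of enteroendocrine cell fate, and the floxed allele is removed in the epithelium, so that the TN allele is the copy left there. All 6 animals carried the floxed allele. Cre, the number of Nkx2.2 copies in the epithelium and the TN allele in other tissues also differed between the groups, and their effects cannot be told apart from that of the mutated domain.

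Facts of all libraries that touch the granins were as follows. Depth, read from the confidence intervals of the FPKM values, ran from 14.21 to 25.91 megareads (M, implied reads), lowest in control 1 and highest in mutant 2. By Xist and Y-linked transcripts each group held 2 male libraries and 1 female library, replicate 3 in both groups. Defining transcripts of intestinal epithelium were abundant, with a summed level of 9974 to 15810 FPKM over 7 genes in controls and 12100 to 15940 in mutants, and 4 gastric markers summed to at most 2.65 FPKM in any library. Pancreatic acinar transcripts summed to 13.7 to 8205 FPKM over 9 genes in controls and to 2110 to 9425 FPKM in mutants. With the replicate block all 9 were higher at an unadjusted p of 0.05 in limma, as were 445 of all 15864 rows. Without the block none of the 9 was higher at that p, and none passed adjustment either way. The targeted gene Nkx2-2 had a control mean of 1.1 ± 0.149 FPKM and a mutant mean of 0.719 ± 0.0461 FPKM (SD, n = 3 each). Its adjusted p was 0.79 in limma.

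Transcripts of both chromogranins were lower in the mutants, and the other 6 members had differences whose 95% intervals include 0. Chga was at 0.428 of its control mean and Chgb at 0.613, and for both every mutant lay below every control. For Scg2, Scg3, Scg5, Vgf, Pcsk1n and Resp18 the mutant mean was 0.675 to 0.885 of the control mean, with overlapping groups. Over all genes tested in limma none of the 8 members passed an adjusted p of 0.05, and neither did any other row (0% of 15864). At an unadjusted p of 0.05 the lower members were 2 of 8, Chga and Chgb, against 4.32% of all tested rows. With limma-voom on the implied reads they were again 2 of 8, against 4.93% of rows, and the adjusted p of Chga was 0.26. Replicate numbers were taken as pairs by the check given with the processing. That check cannot establish pairs 1 and 2, and the first pair is close to its threshold. With the replicate number as a block in limma Chga passed, with an adjusted p of 0.031, as 1 of 2 rows called (0.0126% of 15864). With sex as a covariate instead, the adjusted p of Chga was 0.41. Because the tissue is bulk, fewer granin-making cells and less granin RNA per cell cannot be told apart.

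Short stretches before the start sites are shown first, since the members' promoters are the regulatory sequence at hand and they differ at a known element. The RefSeq promoter table (GRCm38.p6, 250 bases before to 50 after each start) held Chga, Chgb, Scg2, Scg3, Scg5, Pcsk1n and Resp18. Each stretch is 30 bases, read 5′ to 3′ on the strand of the gene and placed on mm9 by a unique exact match. Capitals mark 8 bases that begin with TGACG, the left part of the cyclic AMP response element TGACGTCA, which binds factors of the CREB family.
Chga: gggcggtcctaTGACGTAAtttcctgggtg
Chgb: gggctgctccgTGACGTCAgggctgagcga
Scg2: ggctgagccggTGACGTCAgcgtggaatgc
Scg3: cgctgggtcgcTGACGCCAtcctcacgcct
Scg5: aaggaggtaaaTGACGTTCataggggtcga

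The stretches lie at chr12:103793096-103793125 (plus strand) for Chga, chr2:132607295-132607324 (plus) for Chgb, chr1:79436651-79436680 (minus) for Scg2, chr9:75531875-75531904 (minus) for Scg3 and chr2:113669405-113669434 (minus) for Scg5, all on mm9. The marked letters start 44, 72, 68, 30 and 175 bases before the RefSeq start in that order. Those of Chgb lie inside the authors' Chgb locus, because the RefSeq start falls 364 bases downstream of the deposited one. For Scg2 the RefSeq start falls 64 bases downstream of the deposited one, so its marked letters cross the deposited start. Positions below count from 1 at the T of TGACGTCA, with the base of the element first. Chgb and Scg2 carried the element in full, Chga differed by C7A, Scg3 by T6C, and Scg5 by C7T and A8C. Scg5 held 3 TGACG sites in the window, and only the one before the start is shown. The others lie after the start, at 20 and, on the opposite strand, at 41, and were not compared with the element. The full element TGACGTCA was found on either strand in 2 of the 7 promoters and in 1.79% of all 32851 promoters of the table. The overlapping left part TGACG was found in 5 of 7 and in 20.8% of all. AAGTG, the core of NK2 homeodomain sites, was found in 3 of 7, namely Scg2, Pcsk1n and Resp18, and in 46.4% of all. The E-box CANNTG, bound by factors such as Neurod1, was found in 6 of 7 and in 72.3% of all. Chga, Chgb, Scg3 and Scg5 held no AAGTG in this window. They include the members with the log2 difference furthest from 0 (Chga) and nearest to 0 (Scg3). These matches describe letters only.

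Chga (mm9 chromosome 12, 103793179 to 103803237, plus strand, protein coding) encodes chromogranin A, a calcium-binding core protein of the granule and the precursor of peptides such as pancreastatin and catestatin. In the order of their replicate numbers, the controls had 32.3, 40.2 and 35.9 FPKM and the mutants 13.2, 18.3 and 14.9 FPKM, an order kept for the genes below. The highest mutant was far below the lowest control, and control 2 and mutant 2 were the highest of their groups. The means were 36.1 ± 3.93 and 15.5 ± 2.62 FPKM (SD, n = 3 each). On the log2(FPKM + 0.1) scale the difference, mutant minus control, was −1.23 (SE 0.14, 95% interval −1.55 to −0.9), with an unadjusted p of 5.4e-05, the third smallest of all tested rows, and an adjusted p of 0.28 in limma. Only 0.258% of tested rows had a log2 difference as low. Counting error was small beside this, with 370 to 1420 implied reads per library.

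Chgb (chromosome 2, 132607014 to 132620808, plus strand, protein coding) encodes chromogranin B, the second large core protein of the granule. Its level was 88.2, 96.7 and 87.8 FPKM in controls and 44.2, 71.3 and 51.6 FPKM in mutants. The controls were tightly grouped, and mutant 2 lay nearest to them without reaching them. The means were 90.9 ± 5.05 and 55.7 ± 14 FPKM (SD, n = 3 each), and the log2 difference was −0.73 (SE 0.17, 95% interval −1.13 to −0.33), with an unadjusted p of 0.0035 and an adjusted p of 0.79 in limma, and 0.59 with the replicate block. Chga and Chgb were the 2 of 8 members whose groups did not overlap with mutants below, which held for 9.92% of all tested rows.

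In the authors' deposited table, which tests read counts with DESeq, Chga had mean normalised counts of 1163 in controls and 515.7 in mutants, a log2 fold change of −1.17 and an adjusted p of 3.26e-08. That was the smallest p of the table. In the authors' deposited table Chgb had means of 4390 and 2790, a log2 fold change of −0.65 and an adjusted p of 0.342, and each of the other 6 members had an adjusted p of 1. Chga was 1 of 7 genes past an adjusted p of 0.05 there (0.0378% of 18541 with a p). The deposited counts and the FPKM values come from the same libraries, so the tables give the same animals under different tests.

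**Figure D1:**
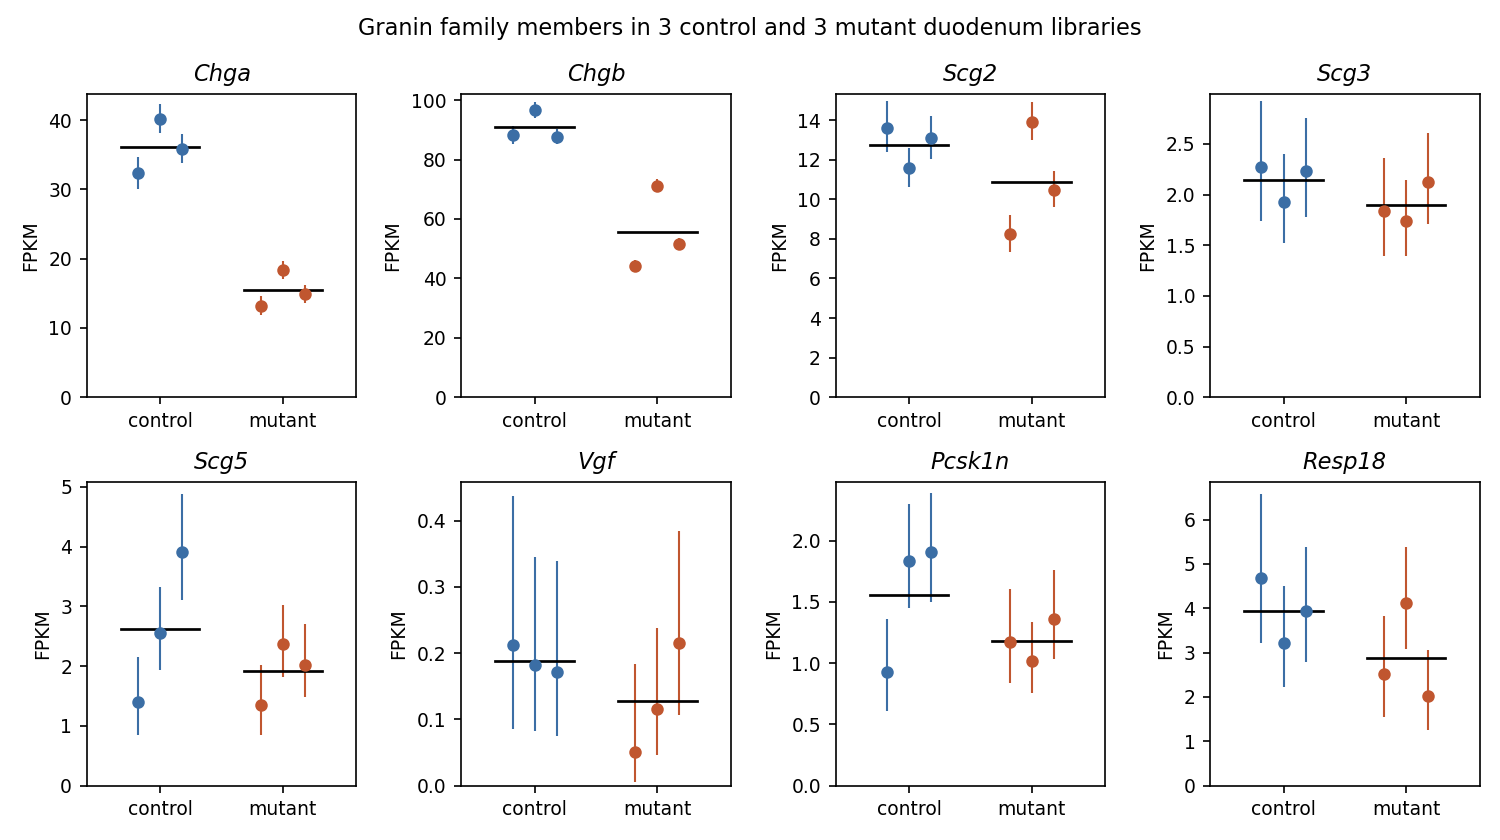
FPKM of each of the 8 granin family members by library; points are libraries (replicates 1 to 3 from left to right), vertical lines are 95% Poisson intervals of the implied reads (counting error only) and black bars are group means. Chga and Chgb separate the groups, with mutants at 13.2 to 18.3 and 44.2 to 71.3 FPKM, and the other 6 panels overlap.

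Scg2 (chromosome 1, 79431244 to 79436665, minus strand, protein coding) encodes secretogranin II, the precursor of secretoneurin. Controls had 13.6, 11.6 and 13.1 FPKM, and mutants had 8.24, 13.9 and 10.5 FPKM. Mutant 2 was the highest of all 6 libraries and mutants 1 and 3 were below each control. The means were 12.8 ± 1.06 and 10.9 ± 2.86 FPKM (SD, n = 3 each), with a log2 difference of −0.26 (95% interval −0.7 to 0.18) and an adjusted p of 0.8 in limma.

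Scg3 (chromosome 9, 75491173 to 75531863, minus strand, protein coding) encodes secretogranin III, which tethers chromogranin A to the granule membrane. Controls had 2.27, 1.93 and 2.23 FPKM, mutants 1.83, 1.74 and 2.12 FPKM. Its log2 difference of −0.17 (95% interval −0.49 to 0.15) was the nearest to 0 of the 8 and had an adjusted p of 0.81 in limma. Scg3 was also the only member with more than 1 RefSeq transcript in the tables. NM_009130 was at 2.27 FPKM in control 1 and at 0.266 to 0.889 FPKM in the other 5 libraries, whereas NM_001164790 was near 0 in control 1 and at 1.21 to 1.47 FPKM in the others. With 59 to 90 implied reads for the gene and transcripts of 2207 and 2192 bases, this division of reads is an estimate by the authors' software, and the gene's sum does not depend on it.

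Scg5 and Pcsk1n encode the partners of the prohormone convertases. Scg5 (chromosome 2, 113616470 to 113669248, minus strand, protein coding) gives 7B2, the chaperone and inhibitor of the convertase Pcsk2. It ranged widely in the controls, at 1.4, 2.56 and 3.92 FPKM, and was at 1.35, 2.36 and 2.03 FPKM in the mutants. The 20 implied reads of control 1 give an exact Poisson interval of 0.852 to 2.16 FPKM, which lies below the interval of control 3 at 3.1 to 4.88 FPKM. The spread among controls was therefore larger than counting error, and the log2 difference of −0.36 had a 95% interval from −1.25 to 0.53 (adjusted p of 0.84 in limma).

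Pcsk1n (chromosome X, 7496948 to 7501536, plus strand, protein coding) gives proSAAS, an inhibitor of the convertase Pcsk1. It was at 0.93, 1.84 and 1.91 FPKM in controls and 1.17, 1.02 and 1.36 FPKM in mutants. All 3 mutants lay between control 1 and the other two controls. The log2 difference was −0.31 (95% interval −0.98 to 0.35, adjusted p of 0.82 in limma). Control 1 was thus the lowest control for both genes, and without it Scg5 and Pcsk1n had log2 differences of −0.73 and −0.63, unadjusted p of 0.046 and 0.012, and adjusted p of 0.99 each.

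Resp18 (chromosome 1, 75268777 to 75274955, minus strand, protein coding), the regulated endocrine-specific protein, was at 4.69, 3.22 and 3.93 FPKM in controls and 2.51, 4.11 and 2.02 FPKM in mutants. Mutants 1 and 3 were below each control and mutant 2 was within the control range. The log2 difference was −0.49 (95% interval −1.13 to 0.15, adjusted p of 0.79 in limma), from 21 to 53 implied reads per library on a transcript of 710 bases.

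Vgf (chromosome 5, 137506165 to 137509221, plus strand, protein coding), a neurotrophin-inducible granule protein best known from neurons, was the least abundant member. It was at 0.212, 0.182 and 0.172 FPKM in controls and 0.051, 0.116 and 0.215 FPKM in mutants, from 7, 9 and 8 and from 2, 7 and 11 implied reads. Mutant 3 was the highest library and mutant 1 the lowest. The log2 difference was −0.41 (95% interval −1.2 to 0.38, adjusted p of 0.81 in limma). The exact Poisson interval of mutant 1 reaches 0.184 FPKM and those of the controls start at 0.0743 to 0.0852 FPKM, so the counting intervals overlap.

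**Figure D2:**
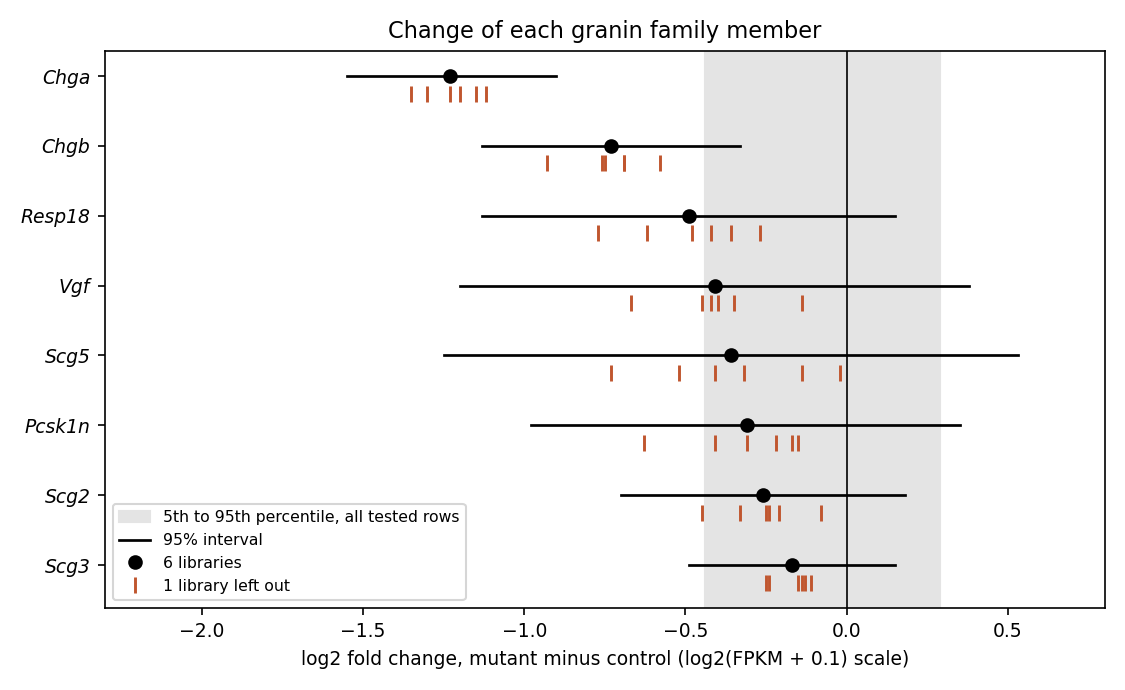
Log2 difference, mutant minus control, of each member on the log2(FPKM + 0.1) scale with its 95% interval in limma (black) and with each library left out in turn (red ticks); the grey band spans the 5th to the 95th percentile of all tested rows, −0.44 to 0.29. The intervals of Chga and Chgb lie below 0 and those of the other 6 members cross it.

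All 8 members had a negative log2 difference, with a median of −0.38, while 61.3% of all tested rows were negative and the median of all was −0.05. The sign stayed negative for each member in every alternative run, those with 1 library left out and those with other scalings included. The size ran from −1.35 to −1.12 for Chga and from −0.93 to −0.58 for Chgb over these alternatives. The other ranges were −0.25 to −0.08 for Scg3, −0.45 to −0.08 for Scg2, −0.77 to −0.27 for Resp18, −0.67 to −0.15 for Pcsk1n, −0.72 to −0.08 for Vgf and −0.87 to −0.02 for Scg5. Without mutant 2, Scg2 and Resp18 had log2 differences of −0.45 and −0.77, unadjusted p of 0.018 and 0.0086 and adjusted p of 0.66 each, and 4 members had mutants wholly below controls, against 19.8% of all rows. That count was also 4 without control 1 (Chga, Chgb, Scg5 and Pcsk1n), against 13.4% of rows, and without mutant 3 (Chga, Chgb, Scg3 and Vgf), against 14.3%.

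Within each sex the chromogranins gave a similar difference. In the 2 male libraries per group the log2 difference of Chga was −1.21, and between the female libraries it was −1.26. For Chgb these values were −0.72 and −0.77. Scg2 had −0.23 in males and −0.32 in females, Scg3 −0.22 and −0.07, and Pcsk1n −0.24 and −0.46. The values lay further apart for Scg5, at −0.08 and −0.92, for Resp18, at −0.27 and −0.93, and for Vgf, at −0.72 and 0.21. With 1 female library per group these have no replicate check. In the male libraries only, the adjusted p was 0.94 for both chromogranins in limma, and with sex as a covariate it was 0.41 for Chga and 0.62 for Chgb. With the acinar level as a covariate the log2 differences were −1.27 and −0.72, and those of Scg5 and Pcsk1n were −0.87 and −0.67, with unadjusted p of 0.012 and 0.02 and adjusted p of 0.84 each.

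How unevenly the members differed was measured by ratios within a library, in which a library's scaling cancels apart from the pseudocount. The log2 ratio of Chga to Chgb was −1.44, −1.26 and −1.29 in controls (from log2(FPKM + 0.1)) and −1.73, −1.95 and −1.79 in mutants. Each mutant ratio lay below each control ratio. The difference was −0.49 (SE 0.09), with a two-sided exact permutation p of 0.1, the smallest that 3 against 3 libraries can give, and 0.47 adjusted over the 28 pairs of members. The log2 ratio of Chga to Scg2 was 1.24, 1.79 and 1.45 in controls and 0.68, 0.4 and 0.5 in mutants, a difference of −0.97 (SE 0.18, exact permutation p of 0.1, 0.47 adjusted). The log2 ratio of Chgb to Scg2 was 2.69, 3.05 and 2.73 in controls and 2.41, 2.35 and 2.29 in mutants, a difference of −0.48 (SE 0.12), with the same exact permutation p.

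Of the 28 pairs, 6 did not overlap between the groups. They were Chga against Chgb, Scg2, Scg3, Vgf and Pcsk1n, and Chgb against Scg2. The log2 ratios of Chga to Scg5 and Resp18 differed by −0.87 (SE 0.39) and −0.74 (SE 0.32), with groups that overlapped. That of Chga to Vgf differed by −0.82, by −0.51 with a pseudocount of 0.01 and by −1.1 with a pseudocount of 1. As background, the ratio of Chga to other tested rows had mutants wholly below controls for 91.4% of 15863 rows, so separation from 5 of 7 family members is what Chga showed against most of the transcriptome. For Chgb the same held for 69.5% of rows and within the family for 1 of the 7, Scg2. Scg2 had a higher ratio with full separation against 0.574% of rows, and in the family against Chga and Chgb. The 15 pairs among the other 6 members included none without overlap. Ratios of these 6 to other tested rows seldom separated either. Mutants lay wholly below controls for 0.87% (Scg5) to 7.75% (Scg3) of rows. They lay wholly above for 0.0441% (Scg5) to 0.99% (Scg3). The lack of separated pairs is thus near the share over all rows. The count of 6 became 10 without mutant 2 or without mutant 3, 10 with a pseudocount of 1 and 5 with a pseudocount of 0.01. Groups separate more easily with fewer libraries. Single rows with mutants wholly below controls rose from 9.92% to 19.8% without mutant 2 and to 14.3% without mutant 3. The share of all ratios that separated in those runs was not computed.

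**Figure D3:**
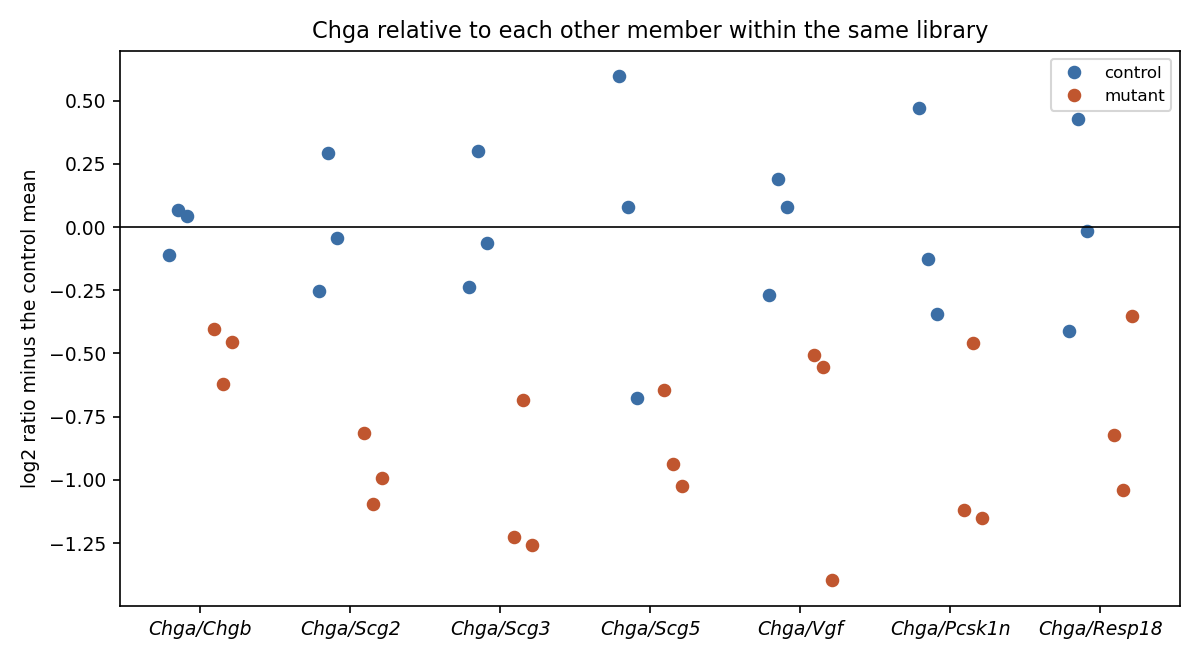
Log2 ratio of Chga to each other member in the same library, drawn as the difference from the mean control ratio; blue points are controls and red points mutants. Mutant ratios lie below all control ratios for Chgb, Scg2, Scg3, Vgf and Pcsk1n and overlap with control 3 for Scg5 and with control 1 for Resp18.

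FPKM is per transcript length, so the members' levels can be compared and summed. In controls the order of mean levels was Chgb, Chga, Scg2, Resp18, Scg5, Scg3, Pcsk1n and Vgf, and mutants had the same order. The ranges of Chgb and Chga, Chga and Scg2, Scg2 and Resp18, Scg3 and Pcsk1n, and Pcsk1n and Vgf were separate in controls. Resp18 and Scg5, and Scg5 and Scg3, overlapped. In mutants Chga and Scg2 overlapped too, at 13.2 to 18.3 and 8.24 to 13.9 FPKM, although Chga was the higher in each of the 3 libraries. The chromogranins were among the more abundant transcripts of the tissue: 93% of tested rows had a lower control mean than Chgb, 83.1% than Chga, 63% than Scg2, and 4.68% than Vgf.

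The summed level of the 8 members was 143.6, 158.2 and 148.9 FPKM in controls and 72.5, 112.9 and 84.7 FPKM in mutants. Mutants were below controls throughout, and mutant 2 was again the nearest. The share of Chga in that sum was 22.5, 25.4 and 24.1% in controls and 18.2, 16.2 and 17.6% in mutants, a difference of −6.66 percentage points without overlap (two-sided exact permutation p of 0.1, 0.4 adjusted over 8 shares). The share of Scg2 was 9.49, 7.32 and 8.8% in controls and 11.4, 12.3 and 12.4% in mutants, a difference of 3.49 percentage points without overlap (exact permutation p of 0.1, 0.4 adjusted). Chgb made up most of the sum in each library, 58.9 to 61.4% in controls and 60.9 to 63.1% in mutants, with groups that overlapped.

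**Figure D4:**
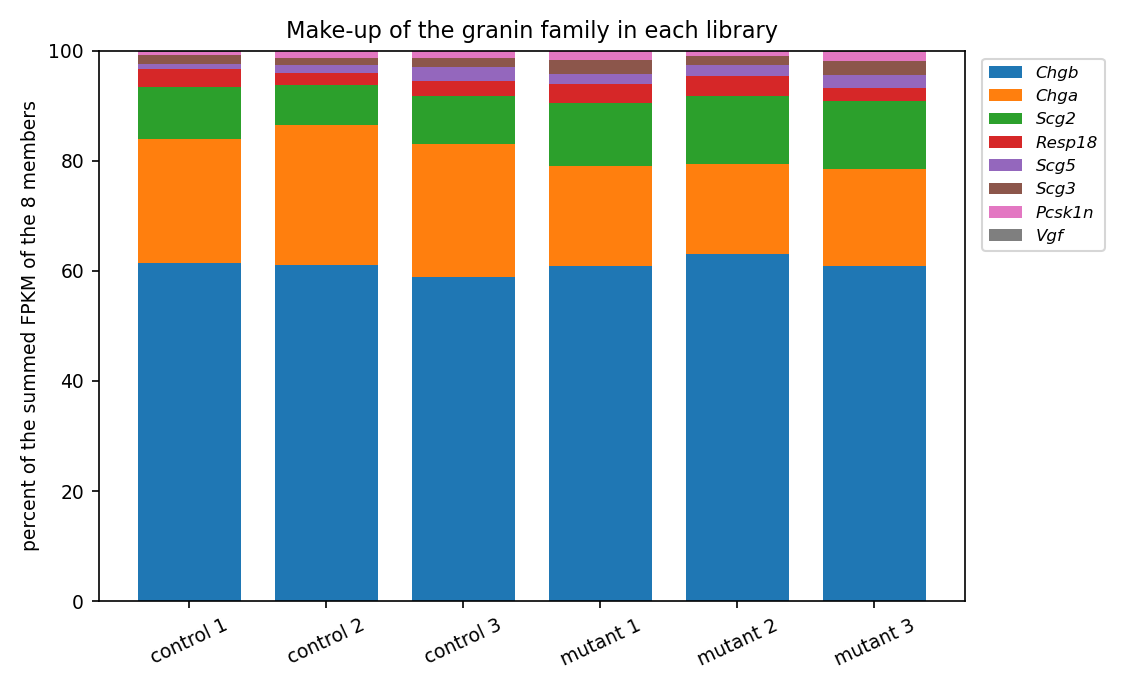
Share of each member in the summed FPKM of the 8 granin family members, per library (stacked bars, percent). Chga takes 22.5 to 25.4% in controls and 16.2 to 18.2% in mutants, and Scg2 7.32 to 9.49% and 11.4 to 12.4%. Shares add up to the whole, so a higher share is not a higher level.

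The library-to-library pattern was partly shared. Within the mutants Chga, Chgb and Scg2 had the same order, with mutant 1 lowest and mutant 2 highest, and Scg5 and Resp18 were also highest in mutant 2. Mutant 2 was the deepest library, at 25.91 M implied reads, and the part of depth in these values was not tested beyond the scalings named. Within the controls Chga and Chgb were highest in control 2, which was the lowest control for Scg2, Scg3 and Resp18. By Pearson correlation of log2(FPKM + 0.1) over the 6 libraries, the 3 rows most like Chga were Kank2 (0.993), Kank1 (0.989) and Pkn2 (0.988), and those most like Chgb were Ppat (0.993), Nbr1 (0.991) and Gigyf2 (0.991). The row most like Scg2 was Gm15545 (0.988), for Scg3 it was Crk (0.998), for Scg5 Rdh13 (0.992), for Vgf Agtr1a (0.984), for Pcsk1n Ptplb (0.983) and for Resp18 Deptor (0.998). With 6 libraries such values are common, and the third-highest correlation of any of the 12570 rows compared had a median of 0.986.

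The chromogranins were set against transcripts of the cells that make them. Tph1, the enzyme of serotonin synthesis in enterochromaffin cells, was at 12.6, 13.7 and 11.7 FPKM in controls and 6.71, 10.6 and 6.32 FPKM in mutants, lower in each mutant. The log2 ratio of Chgb to Tph1 had a control mean of 2.84 ± 0.05 and a mutant mean of 2.81 ± 0.17 (SD, n = 3 each), a difference of −0.02 (SE 0.1, exact permutation p of 1). The log2 ratio of Chga to Tph1 was 1.5 ± 0.13 and 0.99 ± 0.22, a difference of −0.51 (SE 0.15) without overlap (exact permutation p of 0.1, 0.17 adjusted over 10 ratios). Ratios of Chga to other tested rows had mutants wholly below controls for 91.4% of rows, and those of Chgb for 69.5%. Relative to Tac1, the tachykinin precursor gene of the enterochromaffin list, Chga differed by −0.27 (SE 0.13) and Chgb by 0.22 (SE 0.19), both with overlap. Because the tissue is bulk, the cells that held Tac1 RNA were not resolved.

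Other endocrine transcripts differed in both directions. Relative to Neurod1, a transcription factor of differentiating enteroendocrine cells, the log2 ratio of Chga differed by −0.71 (SE 0.13) without overlap, and that of Chgb by −0.21 (SE 0.16) with overlap. Cck, the cholecystokinin gene, was at 55.9, 76.6 and 57.3 FPKM in controls and 138.5, 112.9 and 92.7 FPKM in mutants, with each mutant above each control. The log2 ratio to Cck differed by −2.08 (SE 0.26) for Chga and by −1.59 (SE 0.32) for Chgb. Relative to Ghrl, the ghrelin gene, these differences were −1.92 (SE 0.4) and −1.43 (SE 0.44). Each of these 4 ratios separated the groups, with an exact permutation p of 0.1 and 0.17 adjusted. Such separation held against 91.4% of other tested rows for Chga and 69.5% for Chgb. It is therefore not particular to Neurod1, Cck or Ghrl. Cck and Ghrl are the hormone genes that were higher at an unadjusted p of 0.05. The peptide genes Pyy and Nts had log2 differences of −1.65 and −1.57, further below 0 than that of Chga, and Gip and Sst had 0.23 and 0.13.

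Genes that process prohormones beside the granins showed small differences. Of 9 tested members none passed an adjusted p of 0.05 in limma. At an unadjusted p of 0.05, 1 was lower, against 4.32% of all tested rows. The log2 difference was negative for 8, against 61.3% of all rows, with a median of −0.13. Pcsk1, the convertase that proSAAS inhibits, had a control mean of 4.25 ± 0.491 FPKM and a mutant mean of 3.22 ± 0.582 FPKM (log2 −0.4, unadjusted p of 0.04). Pam, which amidates peptides, had −0.2 and Cpe, the carboxypeptidase that trims them, −0.28. Pcsk2, the partner of Scg5, had means of 0.526 and 0.491 FPKM in the same order (log2 −0.09). With the replicate block 4 of these 9 were lower at an unadjusted p of 0.05, against 5.09% of all rows, and none passed adjustment.

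Granule membrane and exocytosis genes were similar. Of 21 tested members none passed an adjusted p of 0.05 in limma. At an unadjusted p of 0.05, 3 were lower and 1 higher, against 685 and 237 of all 15864 rows. The log2 difference was negative for 17, against 61.3% of all rows, with a median of −0.11. Rab3b, a granule GTPase, had a control mean of 0.881 ± 0.139 FPKM and a mutant mean of 0.515 ± 0.0501 FPKM (log2 −0.67, adjusted p of 0.79 in limma). Snap25, a SNARE of exocytosis, had 3.16 ± 0.428 and 2.11 ± 0.425 FPKM (log2 −0.57). Scgn, the calcium sensor secretagogin, had 2.94 ± 0.54 and 4.26 ± 0.27 FPKM (log2 0.53), with each mutant above each control, as for 3.13% of all rows. Ptprn, a granule membrane protein, had −0.46.

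Markers of the cells that could hold granins had the following values, and their part in the granin values was not tested. Of all tested rows 4.32% were lower at an unadjusted p of 0.05 in limma, 237 of 15864 were higher and 61.3% were negative. Of 8 enterochromaffin genes 4 were lower (Tac1, Trpa1, Lmx1a and Tph1) and 7 were negative, with a median log2 difference of −0.65. Their summed level was 117.7 to 188.2 FPKM in controls and 125.9 to 196.9 in mutants. That sum is mostly Ddc, which was 88.2 to 156.9 FPKM in controls. Of 10 hormone genes 2 were lower (Pyy and Nts) and 2 higher (Cck and Ghrl). With the replicate block 4 were higher, as were 445 of all 15864 rows. Their summed level was 451.2 to 544.2 FPKM in controls and 599.6 to 698.8 in mutants. Of 14 enteroendocrine transcription factors 3 were lower (Nkx2-2, Neurod1 and Foxa1) and 12 were negative, with a median log2 difference of −0.2. All mutants lay below all controls for 5 of them and above for 1, against 9.92% and 3.13% of all rows. Their sums were 82.7 to 98.3 FPKM in controls and 74.6 to 96.7 in mutants. Those sums are mostly Pdx1, which was 64.7 to 82.7 FPKM in controls and 59.9 to 83.1 in mutants.

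Among 11 tested enteric neuron genes none was lower or higher at an unadjusted p of 0.05 in limma. The log2 difference was negative for 10, against 61.3% of all tested rows, with a median of −0.16. Tubb3, Stmn2 and Uchl1 had −0.44, −0.37 and −0.16, and the summed level was 37.6 to 49.7 FPKM in controls and 34.4 to 39.2 in mutants. With the replicate block 1 of the 11 was lower at an unadjusted p of 0.05, against 5.09% of all rows. The islet genes had a sum of 0.0816 to 3.69 FPKM in controls and 0.951 to 4.83 in mutants, and Slc30a8, G6pc2 and Nkx6-1 were at 0 in all 6 libraries. Ins2 reached 2.95 FPKM in control 3 and 3.82 in mutant 3. Chga was 32.3 FPKM in control 1, where Ins1, Ins2 and Ppy were at 0. Among the controls the islet and acinar sums, Scg5 and Pcsk1n were all lowest in control 1 and highest in control 3, and the part of pancreatic RNA in Scg5 and Pcsk1n was not tested beyond the acinar covariate. Smooth muscle genes summed to 507 to 696 FPKM in controls and 393.1 to 500.8 in mutants, lower in each mutant. At an unadjusted p of 0.05 in limma 4 of 5 were lower, against 4.32% of all tested rows. With the replicate block 5 of 5 were lower, against 5.09%.

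**Figure D5:**
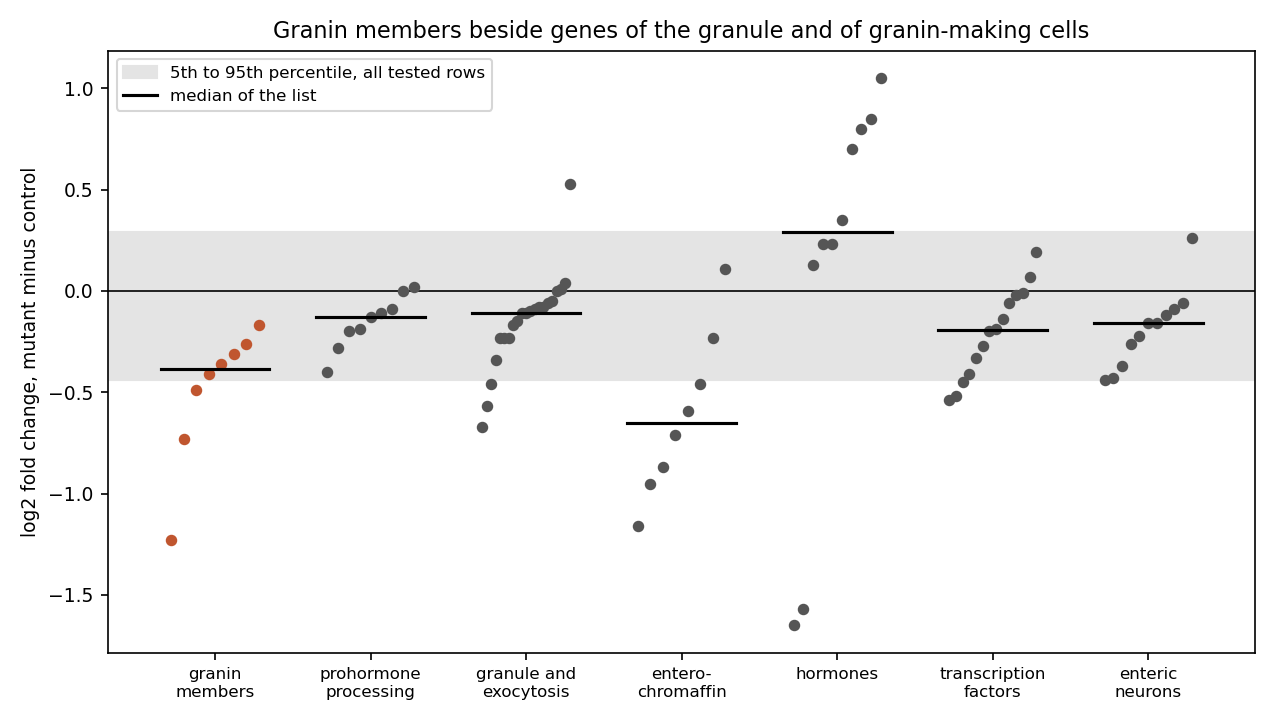
Log2 difference, mutant minus control, of the 8 granin family members (red) and of the tested genes of 6 lists (grey), with the median of each list as a black bar and the 5th to 95th percentile of all tested rows as a grey band. The granin median of −0.38 lies between those of enterochromaffin genes (−0.65) and of granule and exocytosis genes (−0.11), and hormone genes spread in both directions.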

How the data were processed

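The tools named in the submitters' processing notes are CASAVA 1.8.2, TopHat, Cufflinks and DESeq, and the build is mm9. No other version and no read counter is named there. The authors deposited FPKM with confidence intervals per gene and RefSeq transcript, 1 table per library, and a DESeq table. Per the file headers that table holds mean normalised counts (a signal, counts divided by size factors), a fold as ratio and as log2, and p-values. All columns of FPKM were used. The upper bound of an interval lies 2 standard errors above the value, so a Poisson count was implied; for single-transcript genes under 500 implied reads 87.8 to 88.2% of values lay within 0.05 of a whole number. Poisson intervals cover counting error only.

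The main test was limma 3.58.1 (R 4.3.3) with a trended prior on log2(FPKM + 0.1), for the 15864 of 23699 rows with a mean of at least 0.1 FPKM, with Benjamini-Hochberg adjustment over all of them. It was also run on simulated data with independent noise and planted changes larger than that of any member. That run does not speak to changes of the members' size. Fold changes on this scale understate those of low genes. Exact permutation tests used scipy 1.17.1. Deviations of same-numbered libraries from their group means correlated at 0.106, 0.207 and 0.389, each over 0.1. By this rule the numbers were taken as pairs, and the blocked call of Chga rests on it. Deviations within a group of 3 sum to 0, so the value of the third pair forces those between replicates 1 and 2 to be positive on balance. The check therefore cannot establish pairs 1 and 2. Control 1 with mutant 2 gave 0.127, above the 0.106 of the first pair, and the third pair is the female one. Nothing in the labels says how the animals were paired. Members and gene lists were chosen with earlier results of these data known. Named genes were the 8 members, up to 3 genes per list with the smallest p, Nkx2-2 and, per member, the most similar rows. Pcsk2, Ddc, Pdx1, Ghrl, Tph1, Foxa1 and Ptprn were named beside a small count or a sum or as partners. Alternatives were other pseudocounts, filters, scalings, weights, covariates, a replicate block, implied reads (limma-voom) and leaving out each library; male libraries only was added after seeing the data. A gene of the transcription factor list is not reported here.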

Additional observations from a re-analysis of the deposited data

How the results depend on the processing

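The number of members past an adjusted p of 0.05 was 0 in limma and in each alternative except the replicate block, where it was 1 (Chga, adjusted p of 0.031); the pairing by replicate number changed no other call on a member. The number past an unadjusted p of 0.05 was 2, and 4 with the acinar covariate, and lay between 2 and 4 when a single library was omitted, with 4 without control 1 or mutant 2; of all rows 3.08%, 2.47% and 5.64% were lower in these 3 settings. Mutants lay wholly below controls for 2 members under each scaling, and for 2 to 4 when single libraries were omitted; pseudocounts, filters and other models cannot change it. The number of separated pairs was 6, from 6 to 10 with 1 library left out, 10 with a pseudocount of 1 and 5 with a pseudocount of 0.01. Separation is easier with a library left out, so those counts cannot be compared directly with the 6. No member's log2 difference changed sign in any of these settings. The adjusted p of Chga ran from 0.031 to 0.94 over them. Vgf has no value under the filter of at least 1 FPKM. With 3 animals a group, and under 100 implied reads per library for Scg3, Scg5, Vgf, Pcsk1n and Resp18, counting error is part of what limits the precision of these 5. For Scg5 and Pcsk1n the spread among controls was larger than counting error. The Poisson interval of Pcsk1n was 0.608 to 1.36 FPKM in control 1 and 1.5 to 2.39 FPKM in control 3.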
